A study of Drosophila melanogaster with 3 samples.

Results

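The genes described here encode the protein subunits of the mitochondrial ribosome in Drosophila melanogaster, taken as all protein-coding genes in the Ensembl annotation whose symbol starts with mRpL (large subunit) or mRpS (small subunit). There were 73 such genes among 13945 protein-coding genes on the chromosome arms, 47 of the large and 26 of the small subunit. They were set against chromatin immunoprecipitation sequencing (ChIP-seq) peaks of the protein encoded by CG8089, precipitated through an enhanced green fluorescent protein (eGFP) tag at its C-terminal end with an antibody against GFP. The chromatin came from whole embryos of 0-24 hours, both sexes together, of a stable transgenic line carrying the tagged gene, so any binding is summed over all embryonic tissues and ages. There was 1 group of 3 biological replicates, numbered 2, 3 and 4 in the labels, with no contrast between conditions, and control libraries were not analysed here.

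The mitochondrial ribosome sits inside the organelle and translates the few proteins that mitochondrial DNA encodes, all of them core subunits of the oxidative phosphorylation complexes. Its ribosomal RNAs are made from mitochondrial DNA, whereas its proteins are encoded in the nucleus, translated on cytoplasmic ribosomes and imported. Some of these proteins have counterparts in bacterial ribosomes, and others are found only in mitochondria. In the compact fly genome many such housekeeping genes lie head to head with a neighbour, so that a single stretch of DNA serves as the promoter of both.

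The DNA under 4 of the reproducible summits at these promoters is shown first, those at pooled ranks 18, 19, 943 and 1885. Each line is 201 bases of the plus strand of the Release 6 (dm6) genome with the summit at the centre, from 100 bases before to 100 bases after it, and the windows printed hold at most 30 bases of annotated UTR in 1 run. Capitals mark a match to any of the motifs searched on both strands. They were the DNA replication-related element (DRE, TATCGATA), its inner part CGATA, and the core of promoter motif 1 (GGTCACACT). The short word ACACTG was searched as well. So was the palindrome CAGCTG, which is common near fly start sites. GAGAG stood for the site of GAGA factor. A core of the CTCF site (AGNNGGCGC) and the NRG element, in any of the forms TTATGTAA, TTACATAA, TTACGTAA and TTATATAA, completed the list. A DRE always contains CGATA, so the first 2 overlap. The windows are chr3R:15229423-15229623 (mRpS10), chr2L:13835362-13835562 (mRpS23), chr2L:16329190-16329390 (mRpL4) and chr2L:10386429-10386629 (mRpS7). The mRpS10 window held 1 CGATA, on the minus strand, and the other 3 windows held no match to these letters. The windows at mRpL41 (rank 20) and mRpL23 (rank 95) are not printed, and that of mRpL23 held GAGAG. Over all 1597 reproducible peaks at protein-coding promoters, each single motif was found in 3.07 to 38.6% of windows of this width.
mRpS10: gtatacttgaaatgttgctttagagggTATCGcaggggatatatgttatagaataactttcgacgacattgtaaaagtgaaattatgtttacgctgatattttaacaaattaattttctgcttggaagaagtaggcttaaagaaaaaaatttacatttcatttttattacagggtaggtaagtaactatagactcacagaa
mRpS23: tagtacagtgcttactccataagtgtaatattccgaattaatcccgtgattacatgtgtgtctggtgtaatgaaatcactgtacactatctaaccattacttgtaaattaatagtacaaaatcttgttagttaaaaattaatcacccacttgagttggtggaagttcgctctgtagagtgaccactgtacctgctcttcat
mRpL4: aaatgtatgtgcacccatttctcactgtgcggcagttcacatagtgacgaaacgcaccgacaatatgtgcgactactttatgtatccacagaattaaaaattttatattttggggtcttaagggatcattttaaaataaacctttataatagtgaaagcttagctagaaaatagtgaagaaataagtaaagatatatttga
mRpS7: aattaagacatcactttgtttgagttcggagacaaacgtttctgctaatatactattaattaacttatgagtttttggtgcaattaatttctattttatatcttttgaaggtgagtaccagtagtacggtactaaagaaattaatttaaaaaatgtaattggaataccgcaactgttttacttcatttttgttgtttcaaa

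Of the motifs searched, the one that stood farthest above its share in other promoters was the palindrome CAGCTG, which reads the same on both strands. It began between 50 bases before and 44 bases after the 5′-most start site in 35 of the 73 mitoribosomal genes (47.9%), against 9.30% of all 13945 protein-coding genes and 14.0% of those with a shared promoter. It was as frequent in bound genes (7 of 15, 46.7%) as in those not bound (28 of 58, 48.3%), where bound means a reproducible summit within 500 bp of a start site. The stretches printed run from 40 bases before to 29 bases after the 5′-most start site on the strand of the gene, with CAGCTG in capitals. Bound genes (mRpL23, mRpS2, mRpL24, mRpL47 and mRpL35) can be read beside 2 that fell just under the reproducible list (mRpL11, mRpL21). Another 3 had no summit in any list (mRpL33, mRpS33, mRpS35). All were picked from genes with CAGCTG in this stretch. Other genes of each kind lack it, such as mRpS10 (bound), mRpL20 (just under the list) and mRpL15 (no summit). The positions are chr3L:2373675-2373744 (mRpL23, minus strand), chr2L:4850390-4850459 (mRpS2, minus strand), chr2L:4945332-4945401 (mRpL24, minus strand), chr3R:9515879-9515948 (mRpL47, minus strand), chr3R:22023487-22023556 (mRpL35, plus strand), chr3R:14511798-14511867 (mRpL11, plus strand), chr3L:19255032-19255101 (mRpL21, minus strand), chrX:4322202-4322271 (mRpL33, minus strand), chr3R:16436568-16436637 (mRpS33, minus strand) and chr3L:2780859-2780928 (mRpS35, plus strand).
mRpL23: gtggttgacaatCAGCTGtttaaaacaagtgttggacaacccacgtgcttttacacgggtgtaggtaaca
mRpS2: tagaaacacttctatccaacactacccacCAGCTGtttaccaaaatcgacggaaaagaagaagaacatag
mRpL24: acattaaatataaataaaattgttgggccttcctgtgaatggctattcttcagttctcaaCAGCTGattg
mRpL47: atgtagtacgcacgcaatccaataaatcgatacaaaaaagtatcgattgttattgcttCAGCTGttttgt
mRpL35: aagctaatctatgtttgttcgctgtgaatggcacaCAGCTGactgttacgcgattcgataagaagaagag
mRpL11: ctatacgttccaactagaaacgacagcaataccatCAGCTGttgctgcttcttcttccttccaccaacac
mRpL21: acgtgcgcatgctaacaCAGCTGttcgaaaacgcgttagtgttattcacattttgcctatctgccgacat
mRpL33: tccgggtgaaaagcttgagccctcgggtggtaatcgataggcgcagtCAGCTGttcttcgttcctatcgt
mRpS33: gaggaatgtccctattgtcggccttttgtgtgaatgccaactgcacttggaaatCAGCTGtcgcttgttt
mRpS35: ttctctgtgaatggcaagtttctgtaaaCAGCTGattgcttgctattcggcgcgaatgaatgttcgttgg
In these 10 genes the palindrome began at positions from 28 bases before the start site (mRpL23) to 20 bases after it (mRpL24). Over the whole 300-base promoter, 250 bases before to 50 after the start, 40 of 73 mitoribosomal genes (54.8%) held it, against 17.7% of all protein-coding genes and 24.3% of those whose promoter is shared with another protein-coding gene. It was present in 55.6% of mitoribosomal genes with a shared promoter and in 52.6% of those without. Among nuclear oxidative phosphorylation genes 23.9% held it, and among cytoplasmic ribosomal protein genes 9.78%. A match is a description of the letters and not evidence of a binding site, and the window about the start site was chosen after the motif had been seen to be frequent there.

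Of the 73 genes, 15 (20.5%) had a reproducible summit no more than 500 bp from a transcription start site (TSS), beside 14.6% of all protein-coding genes (2034 of 13945). The reproducible list is the authors' list of 3233 peaks called on the pooled replicates and kept after their irreproducible discovery rate (IDR) step. The bound share was thus a few percentage points above that of promoters in general, and 58 of the 73 genes had no reproducible summit. It was not above that of promoters alike in being shared or not with a neighbouring gene. Weighted to that arrangement, as described below, all protein-coding genes stood at 21.8%. The large subunit had 10 of 47 bound genes (21.3%) and the small subunit 5 of 26 (19.2%). The next reproducible summit was never just outside the window: none of the 58 had one between 501 and 1000 bp from a start site. The median distance from a start site to the nearest reproducible summit was 5892 bp for the mitoribosomal genes, against 10839 bp for all protein-coding genes.

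The authors' pooled list, which keeps 30000 entries including weak ones, had a summit within 500 bp of 52 of the 73 genes (71.2%), beside 51.7% of all protein-coding genes. Among genes with a pooled summit, the reproducible list held 15 of 52 (28.8%), beside 28.2% for all protein-coding genes. More of the mitoribosomal promoters therefore carried some entry, while those that did were in the reproducible list about as often as other promoters with an entry. The large subunit had a pooled summit at 32 of 47 genes (68.1%) and the small subunit at 20 of 26 (76.9%). Of the 21 genes without a pooled summit, 13 had an entry in at least 1 replicate list. The remaining 8, with no entry in any list, were mRpL15, mRpL30, mRpL33, mRpL38, mRpL49, mRpL55, mRpS33 and mRpS35.

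**Figure D1:**
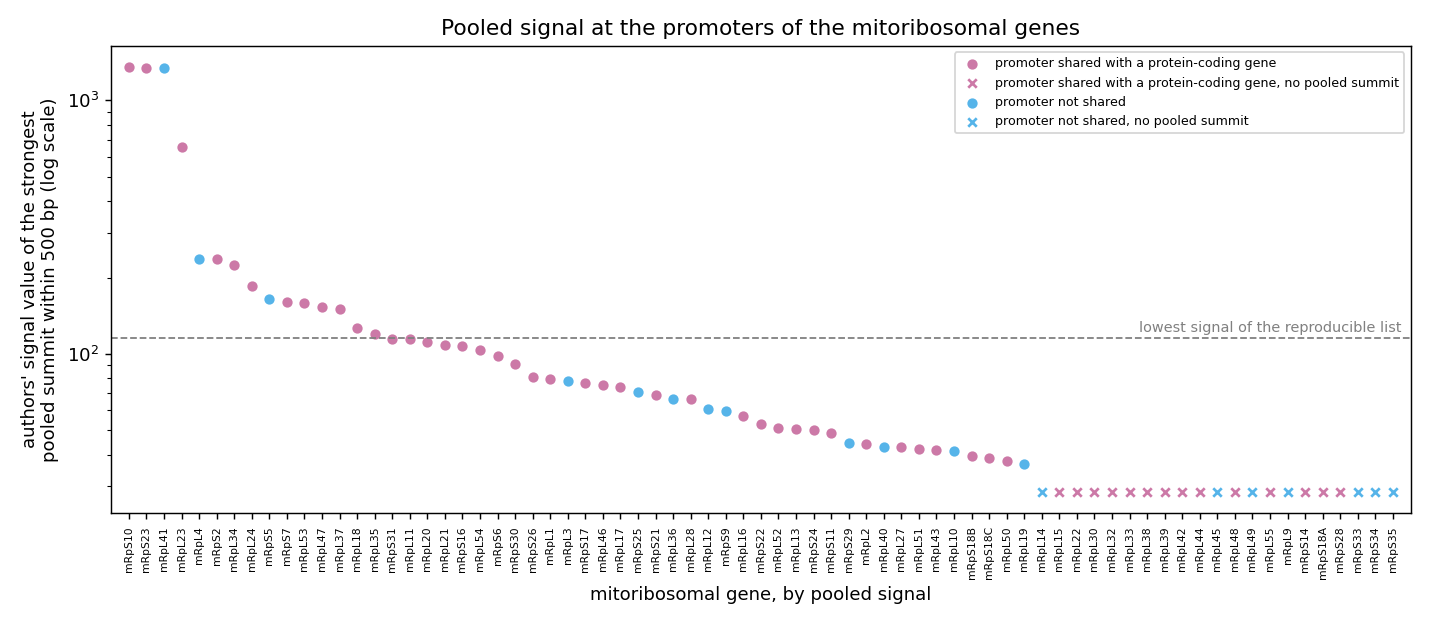
The vertical axis gives the authors' signal value of the strongest pooled summit within 500 bp of each of the 73 genes on a log scale, ordered by signal, with crosses for the 21 genes without one and colour for promoter sharing. The 4 strongest, from 656 to 1352, stand above the next value, 237.5 at mRpL4, and the dashed line marks the lowest signal of the reproducible list, 115.4.

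Replicates differed in how many of these promoters they marked. Among the 3233 strongest entries of each replicate list, as many as the reproducible list holds, summits fell at 21 of the 73 genes in replicate 2 (28.8%), 11 in replicate 3 (15.1%) and 15 in replicate 4 (20.5%). All protein-coding genes gave 14.9% in replicate 2, 13.7% in replicate 3 and 14% in replicate 4. The mean over replicates was 21.5% ± 6.89 for the mitoribosomal genes and 14.2% ± 0.618 for all protein-coding genes (SD, n = 3 each). All 3 replicates were above the share of all protein-coding genes, but in replicate 3 the margin was small, 15.1% against 13.7%. The spread between replicates was wide for this small set, and no test was made over 3 replicates of 1 group. With every entry of a list counted, the genes with a summit were 42 in replicate 2 (57.5%, beside 41.3% of all protein-coding genes), 56 in replicate 3 (76.7%, beside 54.3%) and 43 in replicate 4 (58.9%, beside 48.6%). Replicate 3 thus had the fewest of these promoters among its strongest entries and the most among all its entries.

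Across the 3 replicates, 9 of the 15 bound genes had a summit among the strongest 3233 entries in every replicate. This is 60.0% of the bound mitoribosomal genes, beside 56.3% of all bound protein-coding genes (1146 of 2034). The 9 were mRpS10, mRpS23, mRpL41, mRpL23, mRpL4, mRpS2, mRpL34, mRpL24 and mRpL47. Another 5 had one in 2 replicates (mRpS5, mRpS7, mRpL53, mRpL37 and mRpL18), and mRpL35 had one in 1 replicate.

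The 15 bound genes were served by 16 reproducible peaks, since mRpS5 had an overlapping pair. Their signal fell into 2 levels. The 4 peaks at mRpS10, mRpS23, mRpL41 and mRpL23 ranked 18, 19, 20 and 95 in the pooled list, and the next, at mRpL4, ranked 943. These 4 made up 25% of the mitoribosomal peaks, whereas 56 of all 1597 reproducible peaks at protein-coding promoters (3.51%) ranked in the first 100. The limit of 100 was not among the planned results and lies just past the rank of mRpL23, so the 25% only describes these peaks. The 16 peaks as a whole were placed like other promoter peaks, with a median pooled rank of 1640.5 against 1556 and a median signal of 174.9 against 178.6 in the authors' units. Among peaks with a strong summit in both other replicates, the median rank was 943 without replicate 2, 1049 without replicate 3 and 943 without replicate 4, since weaker peaks are lost. Over 4 equal parts of the reproducible list, strongest first, they numbered 4, 4, 5 and 3. All 16 had the highest −log10 q-value of the list, 3.81, so the q-value does not order them.

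**Figure D2:**
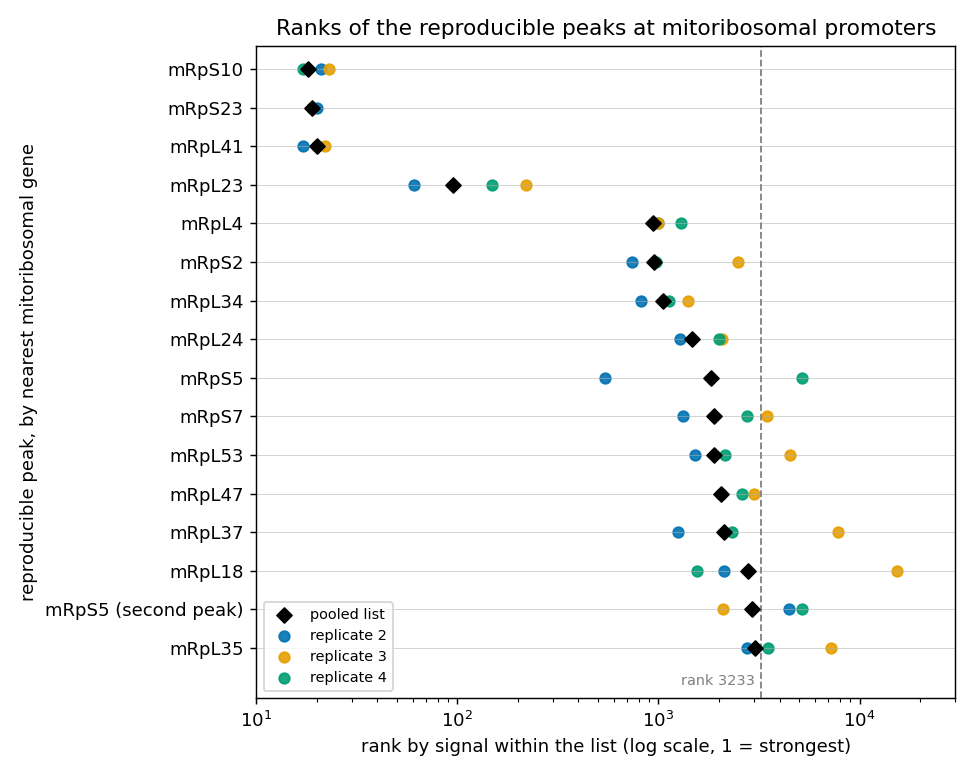
Each row is 1 of the 16 reproducible peaks and the horizontal axis gives its rank by signal on a log scale, as a diamond in the pooled list and as a coloured point in each replicate. The 3 strongest peaks rank between 17 and 23 in every replicate, whereas replicate 3 places mRpS7, mRpL53, mRpL37, mRpL18 and mRpL35 beyond rank 3233, the dashed line.

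The strongest peak was at mRpS10, a small-subunit protein with a bacterial counterpart. It lay at chr3R:15229346-15229704, with an intergenic summit at position 15229523, and had a pooled signal of 1352. Its signal was 466.5 in replicate 2, 438.3 in replicate 3 and 450.2 in replicate 4, at ranks 21, 23 and 17 of 30000. The 3 replicates placed it nearly alike, with summits no more than 13 bp from the pooled one. The summit was 142 bp upstream of mRpS10 and 115 bp upstream of Art3, an arginine methyltransferase gene transcribed the other way, so the peak sits between both genes and nearer to Art3.

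The peak at mRpS23, a mitochondria-specific protein of the small subunit, followed at rank 19. Its signal was 470.6, 466.4 and 405.0 in replicates 2, 3 and 4, and its rank 20, 19 and 19. The peak lay at chr2L:13835297-13835624 with an intergenic summit at 13835462. It was 390 bp upstream of mRpS23, the largest distance among the bound genes, and 102 bp upstream of its head-to-head neighbour CenG1A, which encodes an Arf GTPase-activating protein. Under a window of 250 bp in place of 500 bp this gene alone left the bound set.

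The third of the strong peaks belonged to mRpL41, a mitochondria-specific protein of the large subunit, and had no protein-coding partner. It lay at chr2R:15217585-15217928, 144 bp upstream of the start site, with a signal of 496.3, 439.4 and 397.2 in replicates 2, 3 and 4 at ranks 17, 22 and 20. The only other gene with a start site within 500 bp of the summit was the noncoding gene lncRNA:CR44463, 434 bp away. Among the mitoribosomal genes this was the clearest case of a strong summit with no other protein-coding start site in the window.

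The fourth was at mRpL23, whose bacterial counterpart lines the outer end of the tunnel through which the new protein leaves the ribosome. Its signal was 301.5 in replicate 2, 176.8 in replicate 3 and 167.1 in replicate 4, at ranks 61, 220 and 148. Unlike the first 3, it varied between replicates, with replicate 2 well above the others. The peak, chr3L:2373465-2373765, had its summit 62 bp downstream of the nearest mRpL23 start site, in the annotated 5′ UTR, and 112 bp upstream of CG9004. mRpL23 was the only bound gene whose strongest summit lay downstream of its nearest start site. That of mRpS5 lay upstream of its nearest start site but in its own 5′ UTR. The summits of the 4 strong peaks in single replicates lay at most 18 bp from the pooled summit.

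The other bound genes of the large subunit were of medium or low rank. mRpL4, whose bacterial counterpart lines the exit tunnel, had a peak at chr2L:16329092-16329487 with ranks 993, 991 and 1287 in replicates 2, 3 and 4, 158 bp upstream and with no other gene's start site within 500 bp. mRpL34 ranked 821, 1403 and 1125 and shares its promoter with Dg, the gene of dystroglycan, a receptor for the extracellular matrix. mRpL24 ranked 1280, 2067 and 1997 beside betaggt-I, the gene of an enzyme subunit that attaches lipid anchors to small GTPases. All 3 were among the strongest 3233 entries in every replicate. mRpL53 ranked 1526, 4484 and 2134, inside an intron of AGO1, the Argonaute gene of the microRNA pathway, 49 bp upstream of the start site that mRpL53 has in common with CG33155 and 121 bp upstream of an AGO1 start site on the other strand. mRpL47, related to a bacterial protein near the tunnel exit, ranked 2044, 2986 and 2607, with CG8176 and the histone demethylase gene Kdm3 both 53 bp from the summit. The 2 differ in replicate 3, where mRpL53 fell outside the strongest 3233 and mRpL47 did not.

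The 3 weakest of the large subunit rested on fewer replicates. mRpL37 ranked 1250, 7769 and 2316 in replicates 2, 3 and 4. mRpL18, whose bacterial counterpart binds ribosomal RNA of the central protuberance, ranked 2111, 15303 and 1546. Its summit lay in the 5′ UTR of Taz, the gene of tafazzin, which remodels the mitochondrial lipid cardiolipin, 101 bp downstream of the Taz start site. mRpL35 ranked 2761, 7210 and 3510 and shares its promoter with Mitofilin, the gene of a scaffold of the inner-membrane cristae. For all 3 genes replicate 3 gave the weakest rank, and mRpL35 was among the strongest 3233 entries only in replicate 2.

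In the small subunit, mRpS2, mRpS5 and mRpS7 all have bacterial counterparts. mRpS2 ranked 735, 2480 and 972 in replicates 2, 3 and 4, with the summit 27 bp upstream of Mon1, part of an exchange factor for the Rab7 GTPase, and 195 bp upstream of mRpS2. mRpS7 ranked 1324, 3458 and 2764 and shares its promoter with Cdk1, the kinase that drives entry into mitosis. mRpS5 had the overlapping peaks chr3L:24537111-24537506 and chr3L:24537332-24537727, with pooled signals of 163.9 and 122.6. The first ranked 542 in replicate 2 and 5187 in replicate 4 and had no entry in replicate 3, whereas the second ranked 4480, 2086 and 5187, the entry in replicate 4 being the same one. Replicates 2 and 3 thus each supported a different one of the pair, one summit lying in the 5′ UTR and the other in the coding sequence of mRpS5.

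Over the 15 peaks found in all 3 replicates, replicate 3 gave the weakest rank for 12, and replicate 2 the best for 10. The median rank of the 16 peaks was 1121.5 in replicate 2, 2086 in replicate 3 and 1771.5 in replicate 4. A summit among the strongest 3233 entries fell inside 93.8% of the mitoribosomal peaks in replicate 2, 62.5% in replicate 3 and 81.3% in replicate 4, against 80.9%, 73.7% and 81.1% of all 1597 promoter peaks. Only peaks that hold such a summit in both other replicates were kept in turn: without replicate 2 this left 9 bound genes (beside 9.08% of all protein-coding genes), without replicate 3 it left 13 (beside 10.4%) and without replicate 4 it left 9 (beside 8.83%).

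Of the 15 bound genes, 14 (93.3%) had the summit upstream of their nearest start site, as had 83.6% of all bound protein-coding genes and 87.5% of those with a shared promoter. The 14 include mRpS5, whose summit lay in its own 5′ UTR, upstream only of the nearer of its 2 start sites. The distances ran from 46 to 390 bp, with a median of 142 bp against 124 bp for all bound protein-coding genes. The summit was intergenic for 11 of the 16 peaks.

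The start sites of these genes are crowded by neighbours far more often than is usual. A protein-coding gene started within 500 bp of a start site of 54 of the 73 mitoribosomal genes (74.0%), 53 of them head to head, against 30.9% of all protein-coding genes (4309 of 13945). Of the 54 with a shared promoter, 12 were bound (22.2%), beside 26.2% of all protein-coding genes with a shared promoter. Without replicate 2 or replicate 4 these 12 became 7, and without replicate 3 they became 11. Of the 19 without a shared promoter, 3 were bound (15.8%), namely mRpL41, mRpL4 and mRpS5, beside 9.01% of all protein-coding genes with an unshared promoter. With partners counted within 1000 bp in place of 500 bp, 14 bound genes had one. No mitoribosomal gene shared its promoter with a noncoding gene only, an arrangement in which 16% of protein-coding genes were bound. Weighting the shares of all protein-coding genes to the arrangements found among the mitoribosomal genes gave 21.8% bound, against 20.5% observed for the mitoribosomal genes. For the pooled list it gave 64.9%, against 71.2% observed. The part of the arrangement in the bound share was not tested.

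**Figure D3:**
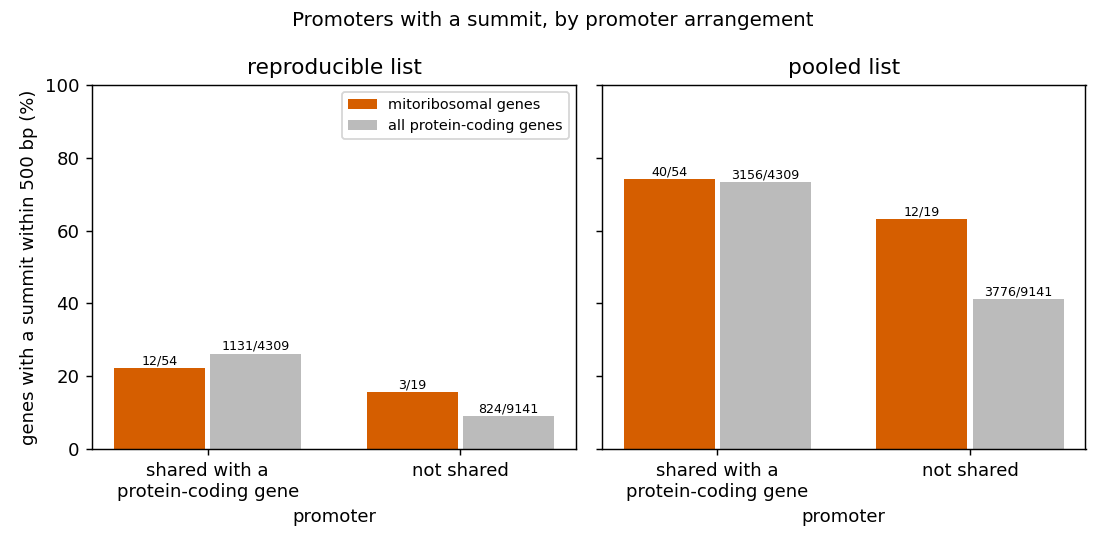
Bars give the percentage of genes with a summit within 500 bp, mitoribosomal genes left of all protein-coding genes, by whether another protein-coding gene starts within 500 bp, with counts above the bars. In shared promoters the reproducible list held 22.2% against 26.2%, and in unshared ones 15.8% against 9.01%.

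In the pooled list 74.1% of the shared mitoribosomal promoters had a summit, against 73.2% of all shared promoters, and 63.2% of the unshared ones, against 41.3%. Compared within 1 arrangement, the mitoribosomal share was thus higher in the 19 unshared promoters (12 with a pooled summit) and hardly so in the shared ones. Across arrangements, the share of all protein-coding genes with a pooled summit was 51.7% unweighted. It was 64.9% when weighted to the arrangements of the mitoribosomal genes, which stood at 71.2%. In 10 of the 12 bound shared promoters the summit lay between the start sites of the mitoribosomal gene and its partner. The nearest start site belonged to the mitoribosomal gene in 6 of the 12, one of them mRpL53 with its common start site, and to the partner in the other 6. The median gap between the start sites was 220 bp in bound promoters (0 to 492 bp, n = 12) and 280 bp in those not bound (0 to 499 bp, n = 42). A single summit in such a promoter cannot be assigned to 1 of the genes from these data.

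**Figure D4:**
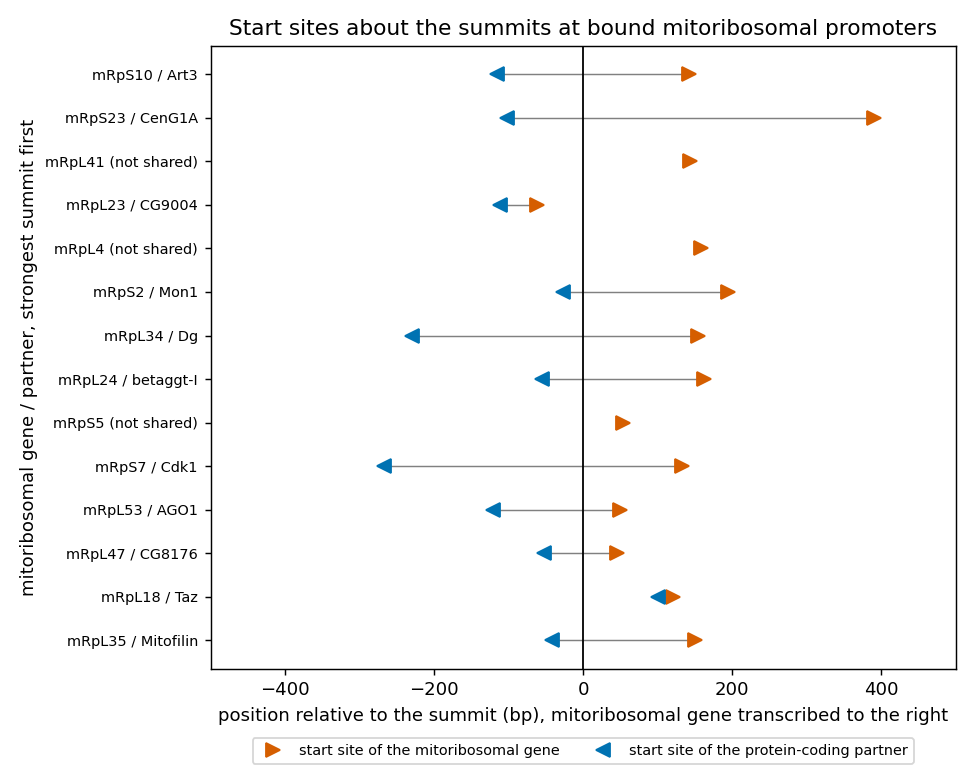
Rows are 14 of the bound genes with the nearest protein-coding gene on the opposite strand, and arrows mark the start sites relative to the summit at 0 bp, the mitoribosomal gene always drawn as transcribed to the right. In 13 of the 14 rows the summit is upstream of the mitoribosomal start site drawn, which is the nearest one. In 9 of the 11 rows with a shared promoter the summit lies between both start sites.

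Several genes stood just under the reproducible list, whose lowest signal was 115.4. mRpS31, a mitochondria-specific small-subunit protein, had a pooled signal of 114.7 (rank 3279) and ranks of 2828, 4037 and 3164 in replicates 2, 3 and 4. mRpL11, whose bacterial counterpart forms the base of the stalk that receives translation factors, had 114.4 (rank 3291) and ranks of 2005, 10268 and 2479, in a promoter shared with HtrA2, a mitochondrial protease gene. Both had a summit among the strongest 3233 entries in replicates 2 and 4, as several bound genes did. mRpL20 (pooled signal 111.7), mRpL21 (108.3) and mRpS16 (107.2) followed, and each was outside the strongest 3233 entries in all 3 replicates. Their neighbours are Icmt, a methyltransferase gene for prenylated proteins, rept, a chromatin-remodelling ATPase gene, and cg. The step from mRpL35 at 120.2 to mRpS31 at 114.7 was small, so the limit of the reproducible list does not part the genes by a gap in signal.

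Among the genes not bound, 51 of 58 had no summit among the strongest 3233 entries of any replicate, 5 had one in 1 replicate and 2, mRpS31 and mRpL11, in 2. These are 87.9%, 8.62% and 3.45% of the mitoribosomal genes not bound, beside 92.3%, 6.78% and 0.873% of all protein-coding genes not bound. Among the 33 genes with a summit in all 3 replicate lists, the 3 whose rank differed most between replicates were of low pooled signal. These ranks are of the best summit within 500 bp in each list, which need not be the same peak. mRpS25 ranked 2324 in replicate 2 but 27489 and 25333 in replicates 3 and 4. Its summits lay 281 bp upstream, 253 bp downstream and 236 bp upstream in replicates 2, 3 and 4. mRpL17 ranked 7745, 28581 and 5179, and mRpL46 ranked 3215, 20497 and 10564. None of the 3 had a pooled signal above 75.5.

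By chromosome, the bound genes were 5 of 12 on 2L (beside 14.6% of all protein-coding genes there), 4 of 12 on 2R (beside 13.7%), 2 of 17 on 3L (beside 15.6%) and 4 of 21 on 3R (beside 15.1%). None of the 11 mitoribosomal genes on X was bound, where 12.9% of all protein-coding genes were, and 4 of the 11 had a pooled summit, against 53.1% of all protein-coding genes on X. A summit among the strongest 3233 entries was seen at 1 of the 11 in replicate 2 and at none in replicates 3 and 4. This split was made after the values had been seen.

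Around the mitoribosomal summits, 5 of the 8 motifs searched were rarer than around promoter summits in general and 3 were more frequent, each on small numbers, within 100 bp of the summit. At this width, CAGCTG was found in 5 of the 16 peaks (mRpS2, mRpL24, mRpL53, mRpL47 and mRpL18), 31.3% against 13.0% of all 1597 promoter peaks. CGATA was found in 4 of 16 (25%) against 38.6%, ACACTG in 3 of 16 (18.8%) against 21.9%, and GAGAG in 3 of 16 (18.8%) against 23.6%. No mitoribosomal peak held a full DRE or the motif 1 core, against 7.45% and 3.69% of all promoter peaks, numbers at which a set of 16 holds few or none. The CTCF core (mRpL18) and the NRG element (mRpS5) each occurred in 1 peak, against 3.07% and 3.26%. Some of these directions depended on the width searched. Within 250 bp of the summit, CGATA stood at 75% against 62.4% and the motif 1 core at 12.5% against 7.45%, both turned round. Within 50 bp, ACACTG turned, at 18.8% against 12.0%, CAGCTG was level at 6.25% against 6.20%, and the CTCF core and the NRG element were in no mitoribosomal peak, against 1.82% and 1.57%. CAGCTG was in 56.3% against 29.2% within 250 bp. None of the 4 strongest peaks held CAGCTG, DRE or the motif 1 core within 100 bp. Within 250 bp, mRpS23 held a DRE, and mRpL41 and mRpL23 held CAGCTG. The bases around the summits were AT-rich, with a median GC content of 32.8% (25.9 to 52.7%) against 37.8% for all promoter peaks.

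The promoters themselves showed the same composition, with a median GC content of 34.7% in the mitoribosomal genes against 38% in all protein-coding genes. It was 36.7% in all genes with a shared promoter, 34.2% in oxidative phosphorylation genes and 36.3% in cytoplasmic ribosomal protein genes. The DRE, the site of the promoter factor DREF, was present in 20.5% of the mitoribosomal promoters against 9.36% of all. Shared promoters of all protein-coding genes held it in 16.1%, oxidative phosphorylation genes in 10.2% and cytoplasmic ribosomal protein genes in 30.4%. The motif 1 core was present in 8 of 73 (10.96%) against 6.05% of all and 10.9% of those with a shared promoter. Oxidative phosphorylation genes held it in 17.0% and cytoplasmic ribosomal protein genes in 9.78%. None of the 15 bound mitoribosomal genes held it, beside 8.51% of all bound protein-coding genes, a share at which a set of 15 holds few or none. The DRE was in 13.3% of the bound mitoribosomal genes, beside 13.9% of all bound protein-coding genes. GAGAG was in 26.7%, beside 31.2%. Over all 73 mitoribosomal promoters GAGAG, the site of GAGA factor, was rarer, at 16.4% against 29.7% of all and 24.3% of those with a shared promoter. In oxidative phosphorylation genes it stood at 22.7% and in cytoplasmic ribosomal protein genes at 17.4%.

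Related gene lists gave very different shares. Of 92 genes whose symbols start with RpL or RpS, most of which encode proteins of the cytoplasmic ribosome, 68 (73.9%) were bound, against 15 of 73 (20.5%) for the mitochondrial ribosome and 14.6% of all protein-coding genes. Among 88 nuclear genes of oxidative phosphorylation, the complexes that the mitochondrial ribosome helps to build, 16 (18.2%) were bound. Single replicates kept this order of magnitude, with 15.1 to 28.8% for the mitochondrial ribosome, 67.4 to 72.8% for the cytoplasmic ribosome and 14.8 to 20.5% for oxidative phosphorylation. The ranges of the mitochondrial ribosome and oxidative phosphorylation overlapped, and neither overlapped that of the cytoplasmic ribosome. The lists were chosen with earlier results of these data known, and no test between them was made.

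**Figure D5:**
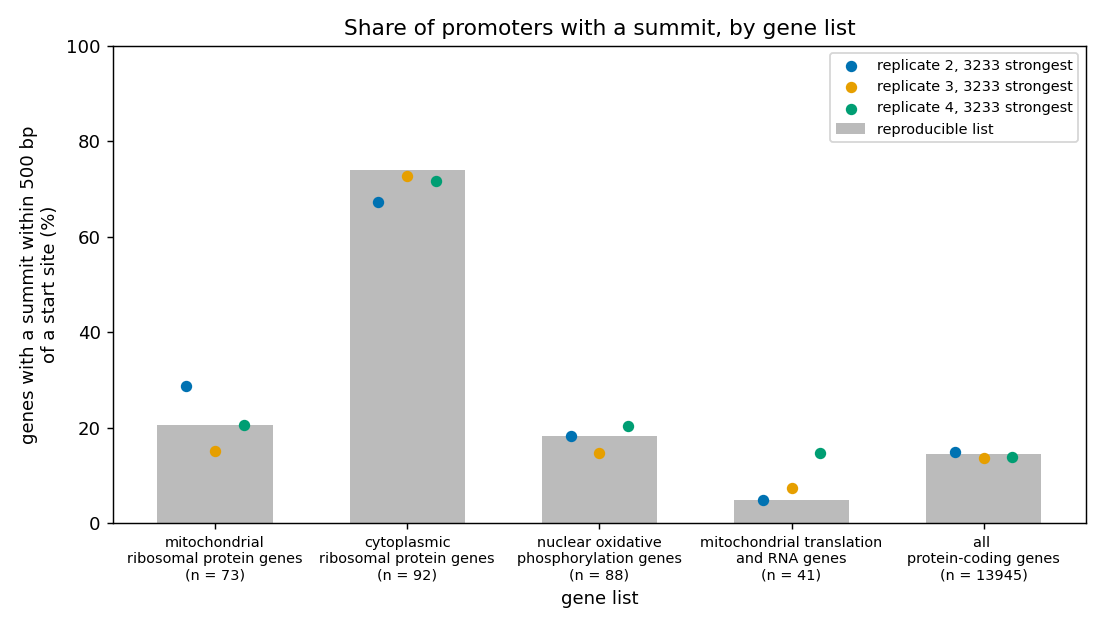
Bars give the percentage of genes in each list with a reproducible summit within 500 bp of a start site, and points give the same for the 3233 strongest entries of each replicate. The mitochondrial ribosome stands at 20.5%, with replicates from 15.1 to 28.8%, beside 73.9% for the cytoplasmic ribosome and 14.6% for all protein-coding genes.

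A further list joined 41 genes of mitochondrial translation, transcription and RNA maturation, with tko and bonsai, mitoribosomal protein genes with other symbols, among them. Of the 41, 2 (4.88%) had a reproducible summit within 500 bp, beside 14.6% of all protein-coding genes, and 25 (61.0%) had a pooled one, beside 51.7%. None of 10 translation factor genes was bound. Nor was any of 16 genes listed as mitochondrial aminoacyl-tRNA synthetases, most of whose products charge transfer RNAs inside the organelle. The bound pair came from the 13 genes of mitochondrial transcription and RNA maturation. PNPase, which encodes an RNA-degrading enzyme of mitochondria, had a signal of 471.0, 522.3 and 483.8 in replicates 2, 3 and 4 and a pooled rank of 17, directly above mRpS10, mRpS23 and mRpL41. PolrMT, the RNA polymerase of mitochondrial DNA, ranked 2568 in the pooled list and 1768, 3504 and 12319 in replicates 2, 3 and 4. The 2 mitoribosomal protein genes with other names, tko and bonsai, had a pooled summit at ranks 5706 and 5230 and no reproducible one. bonsai was among the strongest 3233 entries in replicate 3 (rank 3141) and replicate 4 (rank 2727) but had no entry in replicate 2.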

How the data were processed

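ChIP-seq peak lists of 3 biological replicates were used as deposited. Per the labels, chromatin was sonicated to 200-800 bp. Per the deposited file listings, the authors called peaks on each replicate and on the pooled replicates (30000 entries in each list) and kept the pooled peaks that passed their IDR step (the reproducible list, 3233 peaks). Caller, version and IDR cut-off: not given in the sources used here. Peak strength was read from the signal column as deposited, on a scale that is likewise not stated, and served only to rank entries inside 1 list. The authors' lists also hold −log10 of a q-value. Read numbers are not given, so the depth is unknown and no interval was derived from it. The 3233 reproducible peaks were found to be the 3233 pooled entries of highest signal, so the reproducible list is a signal threshold on the pooled replicates.

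Summits on build dm6 were assigned to genes of Ensembl release 115 (FlyBase annotation 6.54) when they lay within 500 bp of an annotated TSS. Sequence came from the Release 6 genome. Lists on dm3 were not used, and no coordinate was converted. A promoter counted as shared when another protein-coding gene had a TSS within 500 bp. A replicate's strongest entries were its first 3233 by signal, and a replicate recovered a peak when the summit of 1 of these lay inside it. Both strands were searched for motifs, at up to 100 bp from summits and in promoters from 250 bases before to 50 after the 5′-most TSS. The assignment of summits to start sites was tested on made-up peaks at known distances.

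With 1 group there is no contrast, and genes are not replicates, so shares are given beside those of all protein-coding genes with no test; the SD is over the 3 replicates. The members and lists were chosen with earlier results of these data known. The genes named are the bound members and their partners, the 5 members not bound of highest pooled signal, the 3 with the largest spread of ranks among members found in all 3 replicate lists, up to 10 with no entry, tko and bonsai, and bound genes of the mitochondrial translation lists. In these lists 2 of 12 translation factor names, 2 of 18 tRNA synthetase names and 1 of 14 transcription and RNA maturation names matched no gene. The split by chromosome, the weighting by arrangement and the positions of CAGCTG were added after the values had been seen. Some partner details and 1 row of the promoter map are not reported here. Python 3.11.15, numpy 2.4.6, pandas 2.3.3, pysam 0.24.0 and matplotlib 3.10.9 were used.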

Additional observations from a re-analysis of the deposited data

How the results depend on the processing

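No paired analysis was possible because there was 1 group only. The count of bound genes (15) was 14 with a window of 250 bp (19.2%, beside 11.9% of all protein-coding genes). With 1000 bp it was 15 (20.5%, beside 17.2%). It was also 15 with peak intervals in place of summits (beside 15.7%) and with the 5′-most start site only (beside 12.8%). The strongest 1616 of the 3233 reproducible peaks held 8 bound genes (beside 8.05% of all protein-coding genes), 6 of them in shared promoters against 12 in the whole list, with a median rank of 519 against 1640.5. Keeping only peaks that hold a top summit in both other replicates, without each replicate in turn, gave 9 to 13 bound genes, 7 to 11 in shared promoters and median ranks of 943 to 1049. These lists are shorter by construction (1892 to 2119 peaks). Without replicate 2 or replicate 4 the count was 9 (beside 9.08% and 8.83% of all protein-coding genes), and without replicate 3 it was 13 (beside 10.4%). With partners counted only within 250 bp, 7 of the 12 bound genes with a shared promoter kept it. With partners counted within 1000 bp, 14 of the 15 bound genes had one. With every entry of the replicate lists in place of the strongest 3233, the mean number of genes with a summit was 47 against 15.7. The mean shares were 64.4% against 21.5%, beside 48.1% against 14.2% of all protein-coding genes. Genes with a pooled summit numbered 43 to 65 across windows and overlap rules (52 in the report). These are 58.9 to 89.0% of the mitoribosomal genes, beside 40.1 to 62.8% of all protein-coding genes. Motif counts moved in 11 of 16 alternatives of search width, with the turned directions given in the report. The unknown depth, the unknown scale of the signal and the absence of control libraries here limit all values to ranks and positions within lists.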
